A study of Saccharomyces cerevisiae with 12 samples.

Results

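The U4 and U6 small nuclear RNAs (snRNAs) of budding yeast were examined in 12 RiboMeth-seq libraries. They are 2 of the 11 RNAs for which read ends were available, and their 160 and 112 nucleotides make up 272 of 8112 nucleotide positions. Members were chosen by name. RiboMeth-seq counts the 5′ and 3′ ends of short RNA fragments made by alkaline hydrolysis, and a nucleotide with a methylated ribose holds fewer ends than its neighbours. Here the ends are read in addition as a measure of how much of each RNA was in a library.

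The libraries came from total RNA of exponentially growing cells of a Dbp7 complementation system, with 3 libraries in each of 4 groups. WT + EV is the wild-type strain (BY4741 background) with an empty low-copy plasmid, and Δdbp7 + EV is the DBP7 deletion strain with the same empty plasmid. Δdbp7 + Dbp7WT carries DBP7 on that plasmid under its own promoter, and Δdbp7 + Dbp7DQGD carries a copy whose DEGD motif has a glutamate to glutamine substitution that abolishes catalysis. Dbp7 is a nucleolar RNA helicase of large ribosomal subunit assembly. DBP7 mRNA is not among the 11 RNAs, so the genotypes could not be checked from these counts. The strains without active Dbp7 grow more slowly, so growth and helicase activity cannot be told apart where groups with and without it are compared. The paper reports slower growth with Dbp7DQGD than with the deletion alone, so these groups differ in growth as well.

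U4 and U6 are core RNAs of the spliceosome, the particle that removes introns from pre-mRNA. They enter it base-paired to each other in the U4/U6.U5 tri-snRNP. The helicase Brr2 then unwinds the pair, U4 leaves, and U6 pairs with U2 and the 5′ splice site to form the catalytic centre. U4 is made by RNA polymerase II and binds a ring of Sm proteins, whereas U6 is made by RNA polymerase III and binds a ring of Lsm proteins at its 3′ run of uridines.

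The 160-nucleotide length of U4 matches SNR14 on chromosome V in the RefSeq table of the R64 assembly, and the 112-nucleotide length of U6 matches SNR6 on chromosome XII. Both sequences are shown as deposited, 5′ to 3′, because the profiles below are read against them. Capitals mark the 2 longest stretches in which the RNAs can pair without a gap, counting G-U pairs. The first joins U4 nucleotides 1 to 11 to U6 nucleotides 70 to 80 by 11 pairs, all of them Watson-Crick. The second joins U4 nucleotides 56 to 65 to U6 nucleotides 54 to 63 by 10 pairs.
U4: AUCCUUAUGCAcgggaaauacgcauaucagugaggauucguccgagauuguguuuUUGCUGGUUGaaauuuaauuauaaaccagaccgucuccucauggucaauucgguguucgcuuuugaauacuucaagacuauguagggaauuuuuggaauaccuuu
U6: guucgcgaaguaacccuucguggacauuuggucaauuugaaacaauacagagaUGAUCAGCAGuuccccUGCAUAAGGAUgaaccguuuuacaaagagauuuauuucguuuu

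Both stretches lie in the regions known to form the U4/U6 duplex. In all, 49 stretches of at least 6 pairs were possible with G-U pairs allowed, and 3 with Watson-Crick pairs alone. U6 held the ACAGAGA box, which recognises the 5′ splice site, once at nucleotides 47 to 53, and the catalytic AGC triad once at nucleotides 59 to 61. Its last 4 nucleotides, 109 to 112, are the uridine run. In U4 the Sm-site motif AAUUUUUGG occurred once, at nucleotides 143 to 151.

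With active Dbp7 a library had 8578561 to 23549872 ends and without it 5580519 to 10361153, ranges that overlap, and nearly all ends were on rRNA. U4 took between 0.00418% and 0.0564% of a library and U6 between 0.00937% and 0.102%. The 3 box C/D snoRNA rows were all but empty, with no end on U14, at most 2 on one copy of U3 and at most 6 on the other, so 8 of the 11 RNAs carried usable counts. 

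To ask how much U4 and U6 the 4 groups held, ends were first expressed per 1000000 ends on the 3 rRNAs. U4 had 58.3, 70.1 and 84.2 in WT + EV and 41.8, 65.0 and 73.5 in Δdbp7 + Dbp7WT. It had 532, 371 and 480 in Δdbp7 + EV and 429, 495 and 566 in Δdbp7 + Dbp7DQGD. The groups with and without active Dbp7 did not overlap, and the lowest library without it stood above the highest with it by a wide margin. The other RNAs with usable counts did not overlap either, so this separation is no mark of U4. U5 had 49.6 to 129.5 with active Dbp7 and 507 to 778 without it. U1 had 108 to 142 and 289 to 425, and U2 had 319 to 378 and 928 to 1247. The counts behind these levels were 652 to 1372 ends per library with active Dbp7 and 2588 to 5112 without it. The shallowest case, Δdbp7 + Dbp7WT replicate 1, had 41.7 U4 reads per 1000000 reads by 5′ ends, with a 95% Wilson interval of 37.4 to 46.5 that covers counting error only.

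U6 had 110, 129 and 137 ends per 1000000 rRNA ends in WT + EV and 96.2, 93.8 and 101 in Δdbp7 + Dbp7WT. It had 1025, 579 and 823 in Δdbp7 + EV and 579, 621 and 754 in Δdbp7 + Dbp7DQGD. Again no library of one kind reached into the range of the other, as was so for every RNA with usable counts. The spread was widest in Δdbp7 + EV, where replicate 1 was highest and replicate 2 lowest for both RNAs.

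**Figure D1:**
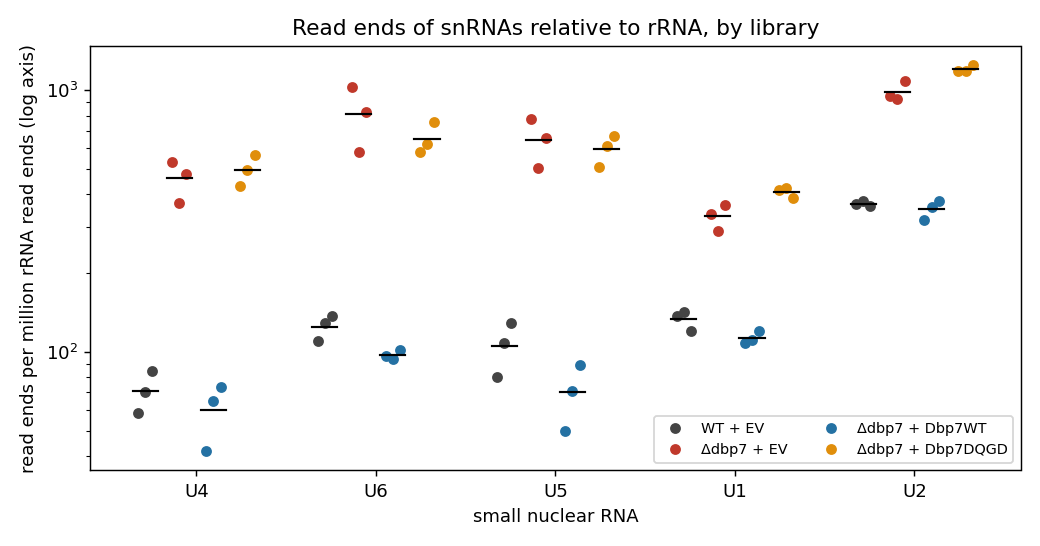
Read ends of the 5 snRNAs per 1000000 rRNA read ends (log axis), 1 point per library and a bar at the mean of the 3 libraries of each group. Every U4 and U6 point without active Dbp7 (371 and higher for U4, 579 and higher for U6) lies above every point with it (84.2 and lower, 137 and lower). The points of U5, U1 and U2 separate in the same direction.

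Over the 6 libraries of each kind, U4 averaged 65.5 ± 14.5 (SD, n = 6) ends per 1000000 rRNA ends where Dbp7 was active and 479 ± 70.3 where it was not, and U6 averaged 111 ± 17.8 and 730 ± 175. In edgeR's quasi-likelihood fit on the totals of the 11 RNAs, relative to all ends of a library, U4 rose 7.32-fold without active Dbp7 (log2 difference 2.87, SE 0.167, adjusted p = 8.78e-09). U6 rose 6.58-fold (2.72, SE 0.14, adjusted p = 3.5e-09). Both RNAs were higher in 6 of 6 same-numbered pairs. This fit called 72.7% of the 11 RNAs, that is all 8 with usable counts, and 63.6% as higher, so that U4 and U6 passed is no mark of these RNAs.

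Taken by group, U4 rose 6.5-fold in Δdbp7 + EV over WT + EV (log2 difference 2.70, SE 0.235, adjusted p = 6.46e-07) and U6 6.46-fold (2.69, SE 0.198, adjusted p = 2.00e-07). In Δdbp7 + Dbp7DQGD over Δdbp7 + Dbp7WT, U4 rose 8.24-fold (3.04, SE 0.238, adjusted p = 1.89e-07) and U6 6.69-fold (2.74, SE 0.198, adjusted p = 1.14e-07). Each of these fits called 72.7% of the RNAs, 63.6% as higher. The difference between both effects was 0.34 (SE 0.313, adjusted p = 0.543) for U4 and 0.05 (SE 0.263, adjusted p = 1) for U6, so neither RNA passed a test for responding unequally to gene deletion and to the catalytic substitution. That interaction called 0% of the RNAs.

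In Δdbp7 + Dbp7WT both RNAs lay within the range of WT + EV or under it. Against WT + EV, the log2 difference of Δdbp7 + Dbp7WT was -0.24 (SE 0.223, adjusted p = 0.575) for U4 and -0.36 (SE 0.187, adjusted p = 0.217) for U6. The 3 U6 levels of Δdbp7 + Dbp7WT all lay below the 3 of WT + EV, for which the exact permutation test gave p = 0.1, the smallest that 3 against 3 allows. Δdbp7 + Dbp7DQGD against Δdbp7 + EV differed by 0.11 (SE 0.219, adjusted p = 0.706) for U4 and -0.31 (SE 0.186, adjusted p = 0.189) for U6. Both comparisons called 0% of the RNAs. The second U6 value depended on the scaling, and passed as lower when library size was taken from U1, U2 and U5 (-0.47, adjusted p = 0.0178).

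The 3 other spliceosomal snRNAs split into a pair and a single RNA. U5, the partner of U4 and U6 in the tri-snRNP, rose 7.23-fold without active Dbp7 (log2 difference 2.85, SE 0.183, adjusted p = 1.91e-08). U1, which first binds the 5′ splice site, rose 2.98-fold (1.58, SE 0.0817, adjusted p = 3.5e-09), and U2, which binds the branch site, rose 3.02-fold (1.59, SE 0.068, adjusted p = 1.32e-09). Among the rRNAs 5.8S rose 1.93-fold and 18S 1.16-fold, while 25S fell by 0.34 on the log2 scale. A rise of the snRNAs relative to rRNA and a fall of rRNA relative to the snRNAs cannot be told apart from such shares. 

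Whether U4 and U6 moved beyond other RNAs was tested on ratios within a library, which are free of the library total. U4 over the summed ends of U1, U2 and U5 was 0.0878 to 0.138 with active Dbp7 and 0.204 to 0.258 without it, a log2 difference of 1.02 (SE 0.109, two-sided exact permutation p = 0.00216, the smallest that 6 against 6 allows, adjusted p = 0.00244 over 9 ratios). U6 over the same sum was 0.172 to 0.224 and 0.275 to 0.497 (0.83, SE 0.145, exact p = 0.00216, adjusted p = 0.00244). Both ratios were higher in 6 of 6 pairs. The permutation took no account of these pairs, and flips of sign within the 6 pairs can give no p under 0.03125. Against 18S alone the rise was 6.38-fold for U4 and 5.59-fold for U6, and against 25S alone it was 9.35-fold and 8.2-fold, each with the same exact permutation p.

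Each reference was then taken alone, a step added after seeing the data. Over U1 alone U4 was 2.48-fold higher and U6 2.18-fold higher without active Dbp7, and over U2 alone 2.45-fold and 2.15-fold (exact permutation p = 0.00216 each, adjusted p = 0.00281 over 13 ratios). Over U5 the picture was different. U4 over U5 ranged from 0.650 to 0.912 with active Dbp7 and from 0.683 to 0.844 without it, a log2 difference of 0.015 (SE 0.098, exact permutation p = 0.874). U6 over U5 ranged from 1.05 to 1.94 and from 1.01 to 1.32 (-0.17, SE 0.138, exact permutation p = 0.251). Over these 6 libraries of each kind the ratios of both RNAs to U5 overlapped, and neither difference passed. Between the plasmid groups alone the U6 to U5 ratios narrowly did not overlap, at 1.01 to 1.13 in Δdbp7 + Dbp7DQGD and 1.13 to 1.94 in Δdbp7 + Dbp7WT, lower in 3 of 3 pairs (-0.39, SE 0.237, exact permutation p = 0.1, adjusted p = 0.108).

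The ratio of U4 to U5 was also compared between plasmid and empty-vector groups. The 3 U4 to U5 ratios were 0.823 to 0.912 in Δdbp7 + Dbp7WT and 0.650 to 0.729 in WT + EV, and 0.806 to 0.844 in Δdbp7 + Dbp7DQGD and 0.683 to 0.732 in Δdbp7 + EV. Neither pair of groups overlapped, and the exact permutation test gave its smallest p of 0.1 in both (0.34, SE 0.0713, adjusted p = 0.52, and 0.22, SE 0.0379, adjusted p = 0.163, on the log2 scale). In Δdbp7 + Dbp7WT against WT + EV the log2 difference relative to rRNA was -0.61 (SE 0.320) for U5 and -0.26 (SE 0.291) for U4. Libraries of empty-vector and plasmid groups also fall into separate sets of replicate pairs, so plasmid and set cannot be told apart here.

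The ratio of U4 to U6, which would show one partner of the duplex moving without the other, was 0.531, 0.546 and 0.617 in WT + EV and 0.519, 0.641 and 0.583 in Δdbp7 + EV. It was 0.435, 0.693 and 0.726 in Δdbp7 + Dbp7WT and 0.741, 0.797 and 0.75 in Δdbp7 + Dbp7DQGD. The ranges with and without active Dbp7 overlapped, and the log2 difference was 0.19 (SE 0.149, exact permutation p = 0.229, higher in 4 of 6 pairs). The 3 libraries of Δdbp7 + Dbp7DQGD lay above all 3 of Δdbp7 + EV (0.40, SE 0.094, exact permutation p = 0.1, adjusted p = 0.45). They also lay above all 3 of Δdbp7 + Dbp7WT (0.34, SE 0.238, exact permutation p = 0.1, higher in 3 of 3 pairs). Such a separation is no mark of the U4 to U6 ratio. U6 over the sum of U1, U2 and U5 also separated Δdbp7 + Dbp7DQGD from Δdbp7 + EV (0.275 to 0.327 against 0.336 to 0.497). So did U4 and U6 over U5, whereas the ratios of both RNAs to rRNA overlapped between these groups. Δdbp7 + Dbp7WT replicate 1 had the lowest U4 to U6 ratio of all 12 libraries, and it also had the highest U6 over U5 ratio, 1.94. 

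**Figure D2:**
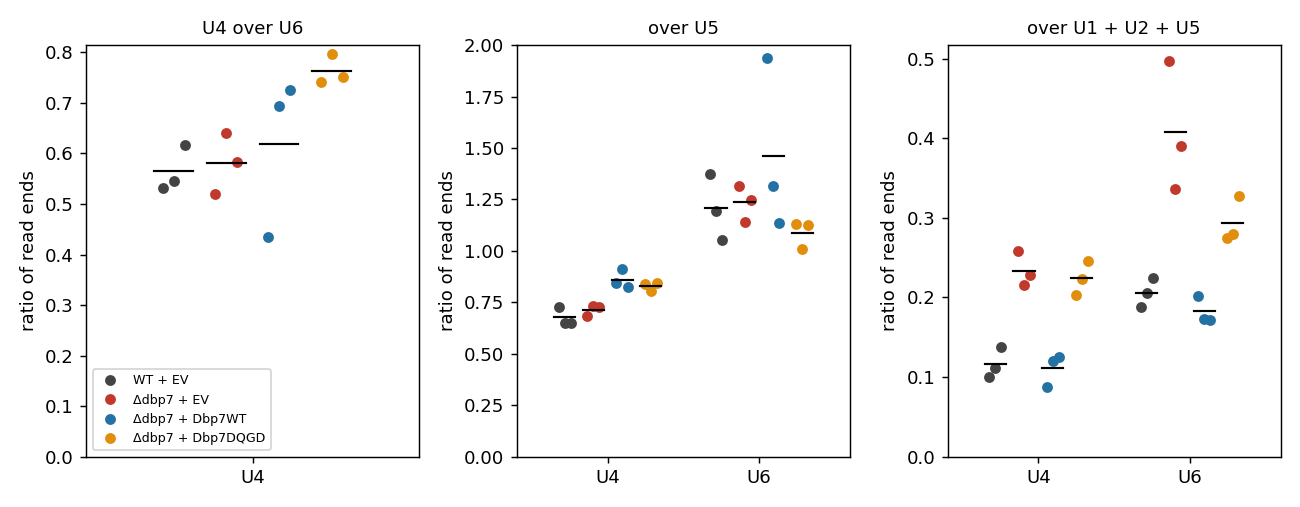
Ratio of read ends of U4 over U6, of each over U5, and of each over the sum of U1, U2 and U5, 1 point per library and a bar at the group mean, with axes from 0. The ratios to U5 overlap between groups with and without active Dbp7, whereas those to the sum of U1, U2 and U5 do not (at most 0.138 against at least 0.204 for U4).

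Per length, U6 was the more abundant of both RNAs in every library. It had 836 to 1219 ends per kb per 1000000 ends with active Dbp7 and 5153 to 9122 without it, while U4 had 261 to 526 and 2312 to 3522. U6 (112 nucleotides), U4 (160) and U5 (215) had larger differences than the longer U1 (569) and U2 (1171). In this order the log2 differences were 2.72, 2.87, 2.85, 1.58 and 1.59 in the pooled comparison. They were 2.69, 2.70, 2.62, 1.30 and 1.42 in Δdbp7 + EV against WT + EV. In Δdbp7 + Dbp7DQGD against Δdbp7 + Dbp7WT they were 2.74, 3.04, 3.09, 1.85 and 1.77. Among the rRNAs the difference was highest for 5.8S (158 nucleotides) and lowest for 25S (3396), with 18S (1800) between them. The ratio of 5.8S to 18S ends was itself 0.202 to 0.412 with active Dbp7 and 0.351 to 0.695 without it, and 25S to 18S was 2.02 to 2.19 and 1.35 to 1.57. Relative to 5.8S, U4 was 3.81-fold and U6 3.34-fold higher without active Dbp7 (exact permutation p = 0.00216, adjusted p = 0.00281). The part of length or fragment recovery in these differences was not tested.

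**Figure D3:**
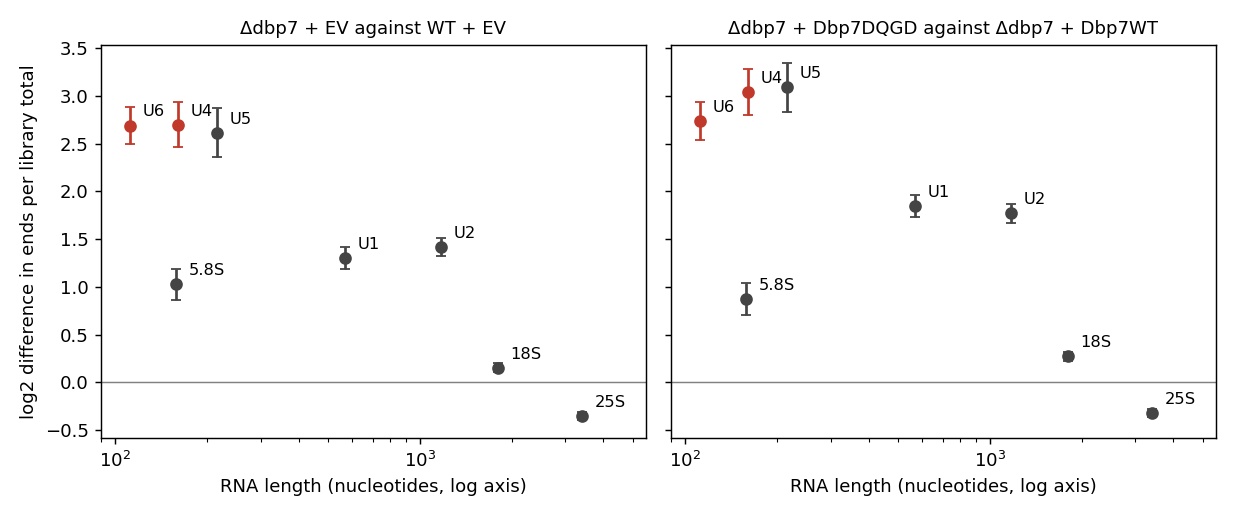
Log2 difference in read ends per library total (edgeR, error bars 1 SE) against RNA length on a log axis for the 8 RNAs with usable counts, in both comparisons of a group without active Dbp7 against its control. U4 and U6, in red, lie with U5 at 2.62 to 3.09, above U1 and U2 at 1.30 to 1.85 and above the rRNAs.

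The distribution of ends along each RNA was then examined, apart from its level. Over all libraries U4 received 13697 5′ ends and 13805 3′ ends, and U6 21549 and 21592. Because fragments of 20 to 40 nucleotides were selected, the termini of an RNA hold 1 kind of end. In U4 no 3′ end fell before nucleotide 17 and no 5′ end after nucleotide 143, and in U6 the limits were nucleotides 16 and 95. In rRNA, the 5′ and 3′ end counts at 23 highly methylated sites were 0.0206 and 0.0334 of those at nearby nucleotides (medians over sites). The sites were chosen for a high methylation score, which is built from the summed ends at the same nucleotide. Low counts of both kinds there follow from that choice. Whether both kinds of end mark the same backbone position was therefore not tested. The first nucleotide of U6 held 1.47% of its 5′ ends and that of U4 0.496%. The last nucleotide held 0.912% of the 3′ ends of U6 and 0.0869% of those of U4.

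Single nucleotides of U4 had a median of 170 ends over all 12 libraries, from 12 at nucleotide 160 to 357 at U51. U6 nucleotides had a median of 346.5, from 107 at nucleotide 98 to 987 at U29. Ends were on average more frequent at pyrimidines than at purines in both RNAs. Relative to the flanking nucleotides, ends averaged 1.13 ± 0.104 (SD over 12 libraries) at C and 1.10 ± 0.0659 at U of U4, against 0.887 ± 0.0795 at A and 0.872 ± 0.0697 at G. In U6 they averaged 1.05 ± 0.0969 at C, 1.16 ± 0.103 at U, 0.933 ± 0.0405 at A and 0.843 ± 0.0719 at G.

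The functional elements differed in their density of ends. Taking the mean nucleotide of the RNA as 1, the ACAGAGA box of U6 had 1.49 ± 0.154 (SD, n = 12) and its AGC triad 1.68 ± 0.545. The 3′ uridine run of U6 had 0.459 ± 0.18, from 3′ ends alone. The U6 strand of the 10-pair stretch had 1.66 ± 0.28 and that of the 11-pair stretch 0.965 ± 0.274, while the U4 strands had 1.11 ± 0.252 and 0.602 ± 0.168. The U4 strand of the 11-pair stretch is the 5′ end of the RNA, where 3′ ends cannot occur, and the uridine run of U6 lies past its last 5′ end, so the low values of both cannot be told apart from their positions. The middle of U6 was dense as a whole, its nucleotides 41 to 60 holding 27.0% of its ends with active Dbp7 and 26.6% without it. Nucleotides 21 to 40, which include none of these elements, held 23.8% and 24.2%. The high values of the U6 elements thus cannot be told apart from their positions either. Hydrolysis was carried out on denatured RNA, so these densities are not a probe of pairing in the cell.

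All of these elements, and the Sm site of U4, had ranges that overlapped between libraries with and without active Dbp7. The ACAGAGA box had 1.52 ± 0.201 (SD, n = 6) where Dbp7 was active and 1.46 ± 0.0958 where it was not, and the U6 strand of the 10-pair stretch 1.60 ± 0.306 and 1.73 ± 0.261. The core of the Sm site of U4, AUUUUUG at nucleotides 144 to 150, had 1.24 ± 0.31 and 0.889 ± 0.266, and the whole motif AAUUUUUGG 1.09 ± 0.253 and 0.84 ± 0.241. By group the density of the core was 1.5, 1.47 and 1.43 in WT + EV and 0.701, 0.710 and 0.938 in Δdbp7 + EV. It was 1.30, 1.02 and 0.711 in Δdbp7 + Dbp7WT and 1.31, 1.07 and 0.611 in Δdbp7 + Dbp7DQGD. The empty-vector groups did not overlap, whereas the plasmid groups ran through the same range, with same-numbered libraries close to each other. Each value rests on 30 to 239 ends, all of them 3′ ends, since no 5′ end of U4 fell after nucleotide 143.

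**Figure D4:**
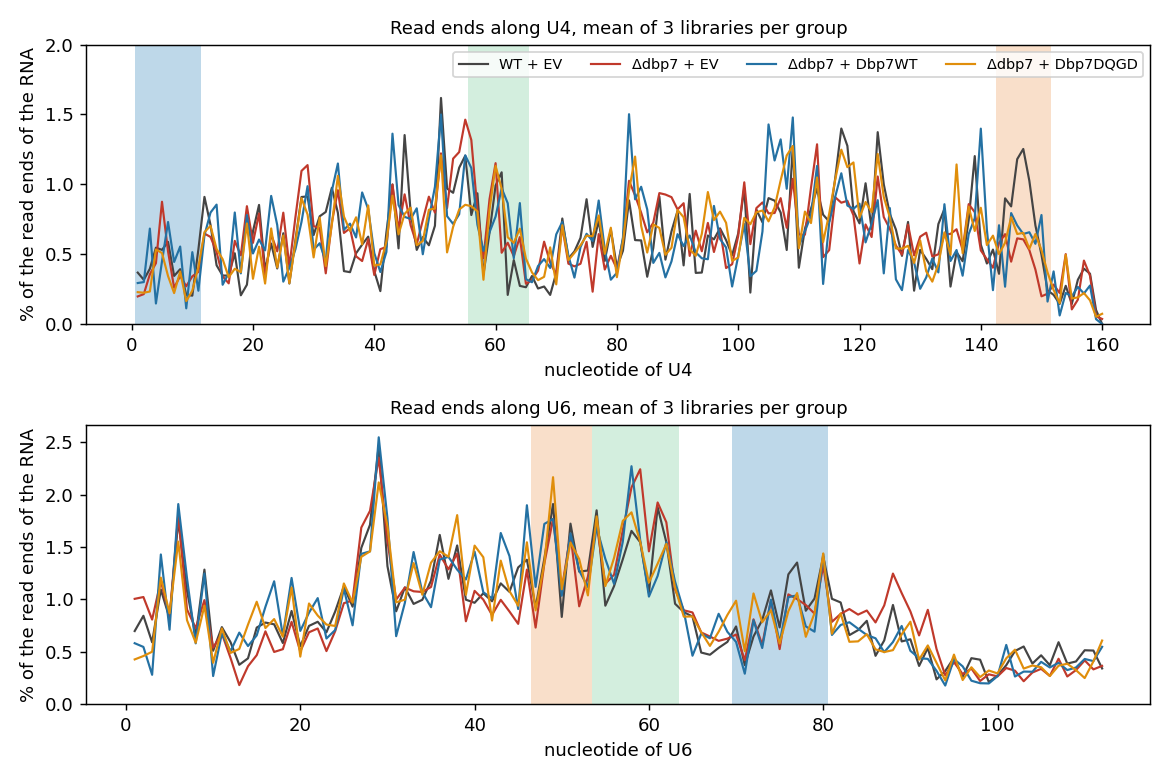
Share of the read ends of U4 (top) and U6 (bottom) at each nucleotide, as the mean of 3 libraries in each of the 4 groups. Blue and green bands mark the 11-pair and 10-pair stretches, and the orange band the Sm-site motif of U4 or the ACAGAGA box of U6. The lines of the 4 groups share their main peaks and troughs in U6, with nucleotide 29 the highest over all libraries (987 ends), and scatter more in U4, which has fewer ends.

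To test the shape of the profile, ends in windows of 20 nucleotides were compared with edgeR relative to the total of the same RNA. No window of U4 (8 tested) or U6 (6 tested) passed in any of the 6 comparisons, where 0% of the 375 windows of all RNAs passed. At an unadjusted p under 0.05 the count was 0 of 14 in every comparison except Δdbp7 + Dbp7DQGD against Δdbp7 + EV, where it was 1. With a block for each replicate pair that count was 2 of 14 in the pooled comparison, 3 in Δdbp7 + EV against WT + EV, 1 in Δdbp7 + Dbp7DQGD against Δdbp7 + Dbp7WT and 2 for the interaction, and again no window passed after adjustment. Without active Dbp7 the smallest p were those of U4 nucleotides 81 to 100 (log2 difference 0.18, SE 0.126, adjusted p = 0.998), U6 nucleotides 81 to 100 (0.17, SE 0.125, adjusted p = 0.998) and U4 nucleotides 141 to 160 (-0.19, SE 0.158, adjusted p = 0.998).

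The last window of U4 held 9.91%, 9.98% and 9.83% of the ends of U4 in WT + EV and 6.75%, 7.05% and 7.98% in Δdbp7 + EV, a log2 difference of -0.45 (SE 0.219, adjusted p = 0.996). In Δdbp7 + Dbp7WT it held 9.51%, 8.78% and 5.29% and in Δdbp7 + Dbp7DQGD 10.4%, 8.31% and 5.85%, with a log2 difference of 0.07 (SE 0.227, adjusted p = 0.988). The window thus separated the empty-vector groups and not the plasmid groups. No other of the 14 windows separated the empty-vector groups. U4 nucleotides 121 to 140 alone separated the plasmid groups (at most 11.7% with Dbp7WT, at least 11.9% with Dbp7DQGD). Among 14 windows such separations can arise by chance, since no split of 3 against 3 has a permutation p under 0.1. With a block for each replicate pair the difference of the last window between the empty-vector groups was -0.46 (SE 0.0997, unadjusted p = 0.00204, adjusted p = 0.699). 

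In the other comparisons the smallest unadjusted p were those of U6 nucleotides 81 to 100 in Δdbp7 + Dbp7DQGD against Δdbp7 + EV (-0.43, SE 0.171, adjusted p = 0.66), of U4 nucleotides 121 to 140 in Δdbp7 + Dbp7DQGD against Δdbp7 + Dbp7WT (0.25, SE 0.151, adjusted p = 0.988) and of the same window in Δdbp7 + Dbp7WT against WT + EV (-0.27, SE 0.156, adjusted p = 0.953). For the interaction it was that of U4 nucleotides 141 to 160 (0.52, SE 0.315, adjusted p = 1).

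The 3′ end of U6 differed between replicate pairs. Nucleotides 101 to 112 held 6.16%, 4.03% and 6.06% of U6 ends in WT + EV and 4.44%, 2.12% and 5.25% in Δdbp7 + EV. They held 8.4%, 3.36% and 2.26% in Δdbp7 + Dbp7WT and 7.82%, 3.31% and 2.79% in Δdbp7 + Dbp7DQGD. Replicate 1 was highest in both plasmid groups and replicate 2 lowest in both empty-vector groups, so libraries of the same number moved together within each set. Within pairs, Δdbp7 + EV was lower than WT + EV in 3 of 3, and the fit with the pair block gave a log2 difference of -0.52 (SE 0.147, unadjusted p = 0.00866, adjusted p = 0.699). For Δdbp7 + Dbp7DQGD against Δdbp7 + Dbp7WT it gave 0.02 (SE 0.159, adjusted p = 0.989).

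At single nucleotides, the comparison of ends with their flanking mean called 0.0559% of 5363 nucleotides in no active against active Dbp7 and none in the other 5 comparisons. No nucleotide of U4 had a flanking mean of at least 10 ends in every library, and 45 nucleotides of U6 did. None of these 45 passed in edgeR, and at an unadjusted p under 0.05 there were 2 in Δdbp7 + Dbp7WT against WT + EV and 0 in the other comparisons. With the minimum set on the average over libraries, added after seeing the data, 140 nucleotides of U4 and 100 of U6 were tested and none passed, where 0.0521% of 5762 passed. The smallest p without active Dbp7 then belonged to U4 A102 (log2 difference 1.19, SE 0.328, adjusted p = 1). Next came U4 C92 (-0.94, SE 0.259, adjusted p = 1).

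Last, the methylation score was read along both RNAs. The RMS score is 1 minus the ends at a nucleotide over the weighted mean of its 6 neighbours on either side, with 0 as the floor. No nucleotide of U4 or U6 had a mean score of at least 0.75, whether or not a minimum of ends was set. From the ends of all 12 libraries summed, which smooths counting noise, the median score was 0.0338 over 148 nucleotides of U4 and 0.0621 over 100 of U6. The highest were 0.542 at G9 of U4, which rests on 57 ends, and 0.467 at A94 of U6, which rests on 111. Of U4 3 nucleotides and of U6 none scored at least 0.5. By the same sum 18 nucleotides of 18S and 39 of 25S scored at least 0.75.

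In single groups the sum reached 0.75 at U4 G9 (0.773) and A153 (0.785) in Δdbp7 + Dbp7WT, the group with the fewest U4 ends. In the other 3 groups G9 scored 0.401 to 0.614 and A153 0.314 to 0.707. Over single libraries G9 ranged from 0.102 to 1 and A94 of U6 from 0.0722 to 0.821. Both U4 nucleotides lie where 1 kind of end occurs, since all 57 ends at G9 were 5′ ends and all 47 at A153 were 3′ ends. The parts of base preference and counting error in these scores were not tested.

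**Figure D5:**
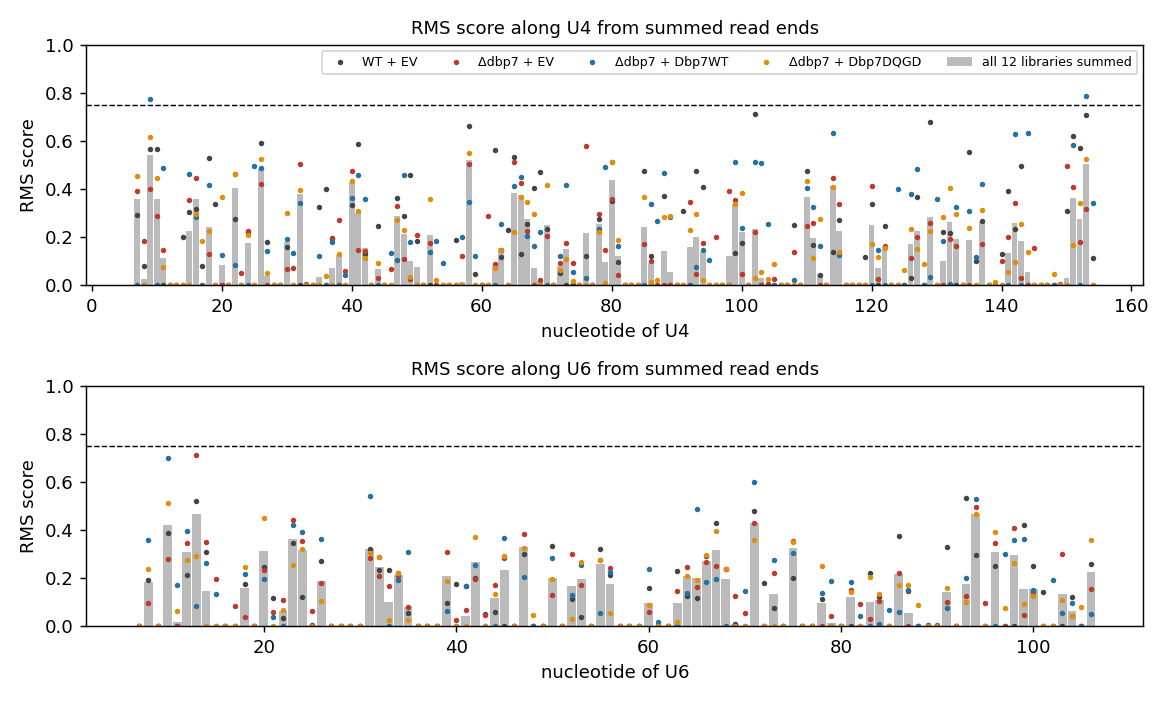
RMS score from summed read ends at each nucleotide of U4 (top) and U6 (bottom), with bars for all 12 libraries and points for the sum over each group of 3. The dashed line marks 0.75. The bars reach 0.542 in U4 and 0.467 in U6, and 2 points, both of Δdbp7 + Dbp7WT in U4, pass the line.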

How the data were processed

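The authors selected fragments of 20 to 40 nucleotides, sequenced them on an Ion Proton, trimmed reads with cutadapt 2.0 and aligned them to the yeast transcriptome with Bowtie2 2.3.4.1 (per the submitters' processing notes). The build is not given in the sources used here. The authors deposited counts of 5′, 3′ and summed read ends per nucleotide, not normalized, and the RMS score as a fraction from 0 to 1. The recomputed score differed from the deposited fraction by at most 5.00e-10. Another 24 per-sample columns of other scores, and the authors' overview of group means, were not used.

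Libraries were grouped and numbered by title, and the series calls them biological triplicates. RNA totals, windows of 20 nucleotides with a mean of at least 50 ends, and nucleotides with a flanking mean of at least 10 were tested with edgeR 4.0.16 in R 4.3.3, fitting the 4 group means to the 12 libraries at once, with Benjamini-Hochberg adjustment over all features. A feature passed at an adjusted p under 0.05. The scripts were tested on simulated data. Ratios were compared by two-sided exact permutation tests in Python 3.11.15, over 924 splits of 6 against 6 and 20 of 3 against 3. Same-numbered libraries deviated together within the empty-vector set (r 0.402 to 0.721 over nucleotides of all RNAs) and within the plasmid set (0.853 to 0.867). Between sets they did not (-0.206 to 0.059), though over the U4 and U6 windows alone r ran from -0.626 to 0.762. The main fits had no block, and the 6 pairs were used as a block in an alternative fit. Other library sizes, TMM, DESeq2 1.42.0, limma 3.58.1, 5′ or 3′ ends alone, trimmed RNAs and omission of single libraries were tried as alternatives. U4 and U6, the reference RNAs and the sequence motifs are always named, and of windows and nucleotides those that passed or else those of smallest p. The members and lists were chosen with earlier results of these data known. The planned ratio to U3 and U14 could not be computed for want of ends.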

Additional observations from a re-analysis of the deposited data

Results flagged for a closer look

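In 62 sets of 6 libraries (with or without active Dbp7), the ratios and window shares of U4 and U6 were searched for a library set apart from the other 5 by Dixon's test (a gap over the range above 0.625). Chance flags about 1 in 20 sets, and 5 were found. Δdbp7 + EV replicate 2 had a log2 ratio of U6 to 5.8S of -8.39, against -7.78 for the nearest library without active Dbp7. WT + EV replicate 3 had a log2 ratio of U6 to U1 of 0.18, against -0.15 for the nearest library with active Dbp7. In U4, Δdbp7 + Dbp7DQGD replicate 3 had 5.95% of its ends in nucleotides 1 to 20, the nearest library having 8.49%. Δdbp7 + Dbp7DQGD replicate 1 had 16.2% in nucleotides 121 to 140, the nearest having 13.5%. Δdbp7 + Dbp7WT replicate 3 had 5.29% in nucleotides 141 to 160, the nearest having 8.78%.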

How the results depend on the processing

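The rise of U4 and U6 without active Dbp7, in Δdbp7 + EV over WT + EV and in Δdbp7 + Dbp7DQGD over Δdbp7 + Dbp7WT passed under all alternatives except library size from U5, including omission of any 1 library (log2 differences of 2.49 to 3.21) and the replicate block of 6 pairs (2.66 to 3.07). That block changed no call of U4 or U6 in these comparisons or in their interaction, and it could not be fitted to the 2 comparisons that cross the sets of pairs. Its size depends on the reference, by construction. Taking library size from U1, U2 and U5 moves every log2 difference of the pooled comparison by -1.87 and from 5.8S by -0.955, and for the pooled comparison DESeq2 gave 1.29 for U4 and 1.12 for U6 and TMM 2.33 and 2.15. With library size from U5, which moved by as much as U4 and U6, U4 gave 0.013 (adjusted p = 1), 0.077 (0.315) and -0.051 (0.472) in the 3 comparisons, and U6 gave -0.19 (0.268), 0.033 (1) and -0.42 (0.077).

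The smaller comparisons each changed sign under at least 1 setting. U6 did so in Δdbp7 + Dbp7DQGD against Δdbp7 + EV only with library size from 5.8S. In Δdbp7 + Dbp7WT against WT + EV it did so only with U5 and with 5.8S. For Δdbp7 + Dbp7WT against WT + EV, U4 became 0.039 with TMM, 0.34 with U5 (adjusted p = 0.0023) and 0.096 with 5.8S, and U6 0.27 with U5 and 0.0032 with 5.8S. For Δdbp7 + Dbp7DQGD against Δdbp7 + EV, U4 became -0.0053 with 18S, -0.060 with U1, U2 and U5, -0.071 with TMM, -0.073 with DESeq2, 0.22 with U5 (adjusted p = 0.0419) and 0.59 with 5.8S (adjusted p = 0.0174). U6 became -0.47 with U1, U2 and U5 (adjusted p = 0.0178), -0.49 with TMM (0.0251), -0.49 with DESeq2 (0.0162) and 0.18 with 5.8S. For the interaction, U4 became -0.11 with TMM and -0.13 with U5, and U6 -0.062 with 18S, -0.30 with U1, U2 and U5, -0.44 with TMM, -0.24 with DESeq2 and -0.46 with U5. The cause was not tested.

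Leaving out 1 library turned the sign of values near 0. In Δdbp7 + Dbp7DQGD against Δdbp7 + EV these were U4 (-0.026 to 0.22) and its ratios to rRNA (-0.034 to 0.23), 18S (-0.11 to 0.12), 25S (-0.15 to 0.17) and U1, U2 and U5 (-0.13 to 0.013). The U6 interaction ran from -0.14 to 0.26. The U4 to U6 ratio ran from -0.035 to 0.12 in Δdbp7 + EV and from -0.038 to 0.33 in Δdbp7 + Dbp7WT, each against WT + EV, and U4 over U1, U2 and U5 in the latter from -0.18 to 0.084. The U4 to 18S ratio of Δdbp7 + Dbp7DQGD against Δdbp7 + EV was -0.0033 from 3′ ends and -0.015 from the central part of each RNA. From 5′ ends alone, U6 nucleotides 81 to 100 turned to -0.32 without active Dbp7, -0.62 in Δdbp7 + EV against WT + EV and 0.16 in Δdbp7 + Dbp7DQGD against Δdbp7 + EV, and U6 nucleotides 41 to 60 to -0.065 in Δdbp7 + Dbp7WT against WT + EV. The first of these windows holds nucleotide 95, after which U6 has no 5′ end. Windows, nucleotides and scores stayed at 0 calls under each alternative that could be fitted. A flanking mean of at least 50 left no nucleotide of U4 or U6, and one of 10 in every library none of U4. Depth limits U4 and U6 most with active Dbp7, where a U4 nucleotide averaged 4.08 to 8.58 ends.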
